A study of Bos taurus with 30 samples.

Results

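The transcripts described here had their highest median level in the cervix of heifers killed 12 h after a progesterone device was taken out. They were chosen on their measured levels, in CPM (a transcript's count scaled to the total of its library). Of 28054 transcripts listed, 22621 had a count in at least 1 heifer, and 16207 had a mean of at least 1 and under 1000 CPM over all heifers. In 971 of these the stage with the highest median was 12 h after device removal, and in 151 that median was at least 1.5 times the next highest stage after 0.5 CPM had been added to both. The 100 with the highest ratio form the group. Because the ratio chose them, the height of their level 12 h after removal is a description and was not tested.

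RNA from cervical tissue of 30 Limousin heifers was sequenced, 1 library per heifer. All heifers had worn a progesterone-releasing vaginal insert, the CIDR (controlled internal drug release) device, loaded with 1.94 g and left in place for 8 days. A day before it came out, each was given 0.5 mg of an analogue of prostaglandin F2α. The stages were 12 h (CIDR+12h, 6 heifers) and 24 h after removal (CIDR+24h, 6 heifers), onset of oestrus (Oestrus, 4 heifers), 12 h (Oestrus+12h, 4 heifers) and 48 h after onset (Oestrus+48h, 5 heifers) and day 7 after onset (Luteal, 5 heifers). No heifer without the device or the injection was analysed here, so every stage shares that treatment. The number of heifers differs in the labels' protocol text, which gives 5 for Oestrus+12h and 4 for Oestrus+48h. Ages are not given in the sources used here.

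Progesterone keeps the oestrous cycle in its luteal state, and a vaginal device that releases it holds off oestrus until it is taken out. Prostaglandin F2α ends the life of the corpus luteum, so that after device removal progesterone falls, the ovarian follicle makes more oestradiol, and oestrus and ovulation follow. The cervix is the muscular and mucus-secreting passage between vagina and uterus, and its opening and its mucus change over this period under both hormones. No hormone level was measured here.

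Transcripts carry only an Ensembl ID in these tables, and 0 IDs could be matched to a gene symbol. The 100 are therefore given by rank of their ratio and, for the 2 with the highest and the 2 with the lowest ratio, by ID. No gene, pathway or cell type is named, and the cervical identity of the tissue could not be checked on marker genes. In whole tissue, fewer cells of a type and less RNA per cell cannot be told apart. Library totals ran from 5434853 to 19628122 counts. CIDR+12h libraries held 8819190 to 19628122 counts and CIDR+24h libraries 6227383 to 8990002, so depth was higher in the stage that defines the transcripts. Depth thus went partly with stage, and its effect was not tested. The second largest library of all, Oestrus+48h replicate 1 with 16449163 counts, had a low median over the 100 transcripts (1.76 CPM), and the CIDR+24h library with a high one, replicate 4, held 7462364 counts. That library, Luteal replicate 1 and Oestrus+12h replicate 3 stood apart from their stages in these transcripts. All 6 stages show at least 90 of the 100 transcripts with a count in every heifer.

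The 100 transcripts were of modest abundance. Their mean level over all heifers had a median of 5.79 CPM (range 1.00 to 202), against 18.8 CPM over the 16207 in the same abundance range, and 47 of them had a mean under 5 CPM. The ratio ranged from 1.77 to 29.6, with a median of 2.72. The stage next in level was CIDR+24h for 32 transcripts, Oestrus for 24, Luteal for 20, and Oestrus+12h and Oestrus+48h for 12 each. The 32 include the first in ratio, whose median was 0 in every other stage, so that none was next in level. The 3 members with the lowest ratios had 1.80, 1.77 and 1.77, and the 3 transcripts just left out had 1.75, 1.74 and 1.74. The boundary at rank 100 therefore separates near-equal values.

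The median over the 100 transcripts was 10.99 ± 5.00 CPM at CIDR+12h (SD over heifers, n = 6), from 7.51 CPM in the lowest heifer through 9.06 at the median to 20.7 in the highest. At CIDR+24h it was 4.09 ± 6.57 CPM (n = 6), which averages 1 heifer at 17.5 CPM, replicate 4, with 5 heifers between 1.22 and 1.93 CPM. Without replicate 4 the CIDR+24h value was 1.41 ± 0.294 CPM (n = 5). The 4 later stages lay near this level. The 4 Oestrus heifers had 1.72 ± 0.401 CPM and the 4 Oestrus+12h heifers 1.74 ± 0.495 CPM. The 5 Oestrus+48h heifers had 1.52 ± 0.239 CPM and the 5 Luteal heifers 1.53 ± 0.28 CPM. The means of these 4 stages differed from each other by less than the SD of any of them. Without Oestrus+12h replicate 3 that stage had 1.498 ± 0.17 CPM (n = 3), and without Luteal replicate 1 the Luteal stage had 1.49 ± 0.313 CPM (n = 4). All 6 CIDR+12h heifers and CIDR+24h replicate 4 were thus above the 23 other heifers, whose medians ended at 2.45 CPM. Over all 16207 in the abundance range the median was 13.7 CPM in CIDR+24h replicate 4 and 13.8 to 21.9 CPM in those 23, with no such split.

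**Figure D1:**
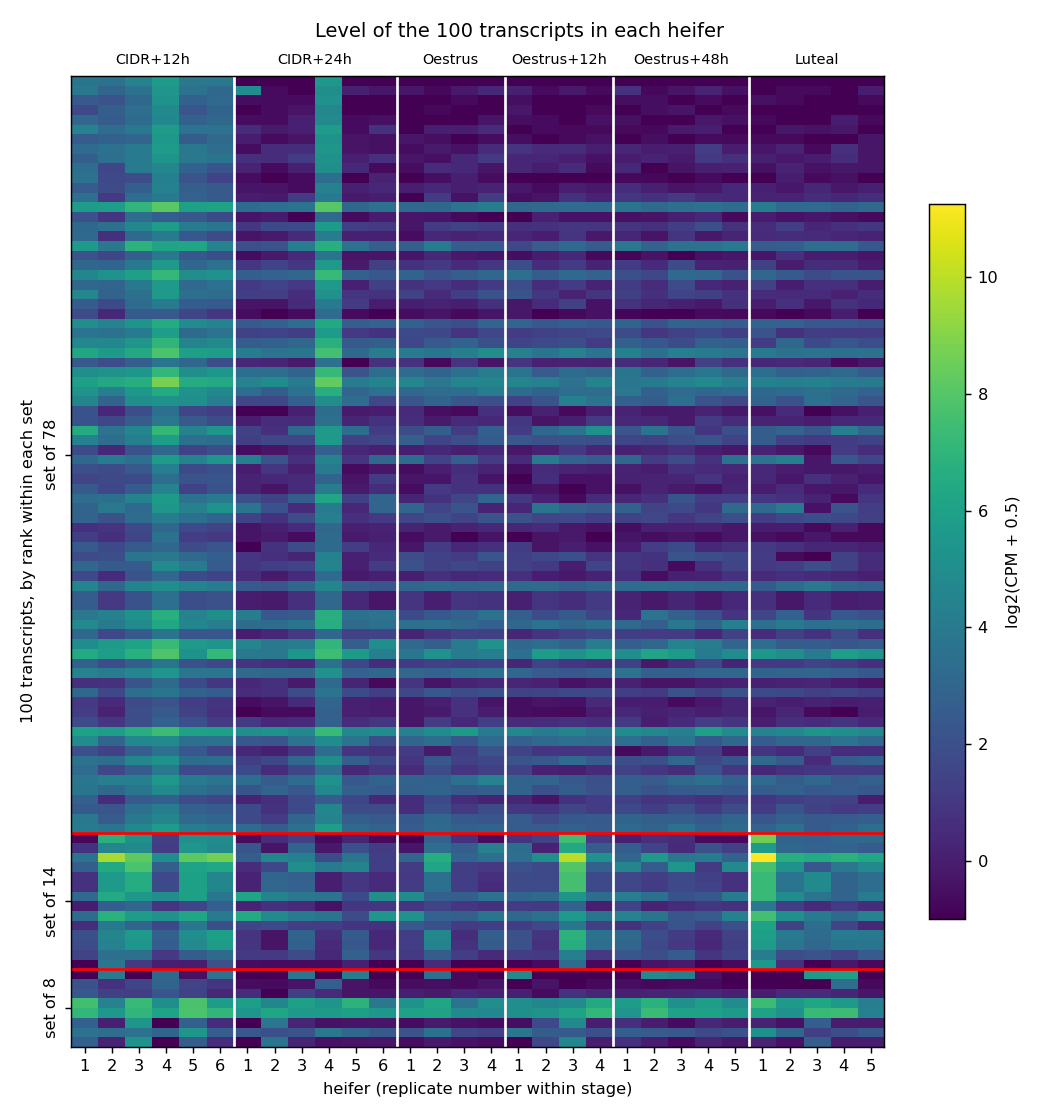
Level of each of the 100 transcripts (rows, by rank within each set, red lines between sets) in each of 30 heifers (columns, white lines between stages), as log2(CPM + 0.5) in colour. The median over the set of 78 is high in all CIDR+12h columns and in CIDR+24h replicate 4, though single transcripts of the set overlap the other heifers. The median over the set of 14 is high in 4 CIDR+12h heifers, Oestrus+12h replicate 3 and Luteal replicate 1.

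With the 23 others as reference, the 100 transcripts separated into sets with different heifers behind the CIDR+12h median. In 78 of the 100, CIDR+24h replicate 4 lay above all 23 others; this held for 3.17% of the 16207 transcripts in range. In 14, Luteal replicate 1 and Oestrus+12h replicate 3 both lay at or above the CIDR+12h median (30.4% of the transcripts in range, most of which are not highest at CIDR+12h). No transcript belonged to both sets, and 8 belonged to neither. The sets were drawn after the values had been seen, and serve as description only.

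The members were chosen on a high CIDR+12h median, and the set of 78 on a high level in CIDR+24h replicate 4. The split of heifers in this set therefore follows in part from both choices. The set's median per heifer was 5.75 CPM in the lowest CIDR+12h heifer, 8.43 at the median of the 6 and 28.5 in the highest, replicate 4. This median was 24.9 CPM in CIDR+24h replicate 4 and between 0.934 and 1.72 CPM in each of the 23 others. No heifer fell between 1.72 and 5.75 CPM.

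In 43 of the 100 transcripts, all of them in the set of 78, every CIDR+12h heifer lay above every one of the 23 others. Only 44 of the 16207 transcripts in range did so (0.271%). The rule used this contrast, so nothing is read from the count. When CIDR+24h replicate 4 was kept among the later heifers, 0 of the 100 had this separation, and 0% of those in range. That heifer was at or above the lowest CIDR+12h heifer in 92 of the 100 (71.2% of those in range), at or above the CIDR+12h median in 79 (36.3%), and above all 6 CIDR+12h heifers in 21 (8.25%).

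The transcript with the highest ratio, ENSBTAT00000056743, was present or absent by heifer. It had 11.9 CPM in the lowest CIDR+12h heifer, 14.3 at the median and 54.7 in the highest, and 45.7 CPM in CIDR+24h replicate 4. In each of the 23 other heifers its count was 0. A count of 0 over those 23 libraries allows a level of up to 0.0161 CPM (3 counts over the 23 libraries, counting error only). The CIDR+12h mean of 21.7 ± 16.5 CPM (SD, n = 6) was 1343 times that limit, a lower bound of the fold over the 23. The transcript was picked for the highest ratio, so the fold is a description.

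The transcript second in ratio, ENSBTAT00000008373, showed 1 further heifer. At CIDR+12h it had 7.45 CPM in the lowest heifer, 11.5 at the median and 40.8 in the highest. At CIDR+24h, replicates 1 and 4 had 32.1 and 33.8 CPM, and replicates 2, 3, 5 and 6 had 0.139, 0, 0.567 and 0.334 CPM. The Oestrus heifers had 0.344, 0.104, 0.389 and 0.784 CPM and the Oestrus+12h heifers 0.552, 0.147, 0.387 and 0.127 CPM. The Oestrus+48h heifers had 1.16, 0.0953, 0.285, 0.661 and 0.238 CPM, and the Luteal heifers 0, 0.126, 0.125, 0 and 0.454 CPM. Both transcripts were near 0 in the 4 later stages, but for this one CIDR+24h replicate 1 was also within the CIDR+12h range. That heifer was at or above the CIDR+12h median in only 3 of the 100 transcripts, against 79 for replicate 4.

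**Figure D2:**
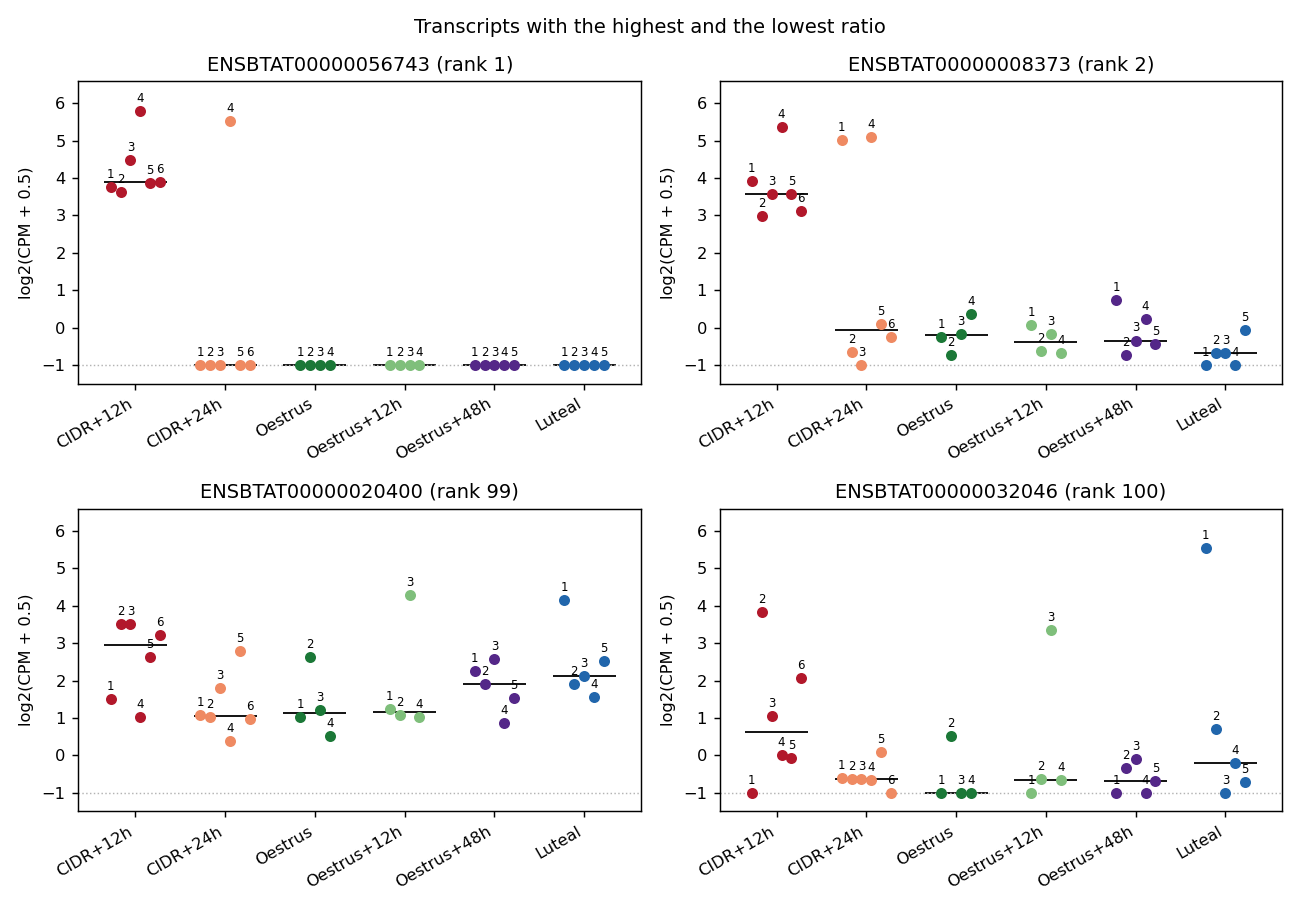
The transcripts with the highest (top) and lowest (bottom) ratio in each heifer, as log2(CPM + 0.5). Points are heifers with their replicate number, bars are stage medians and the dotted line marks a count of 0. The upper pair is high in all CIDR+12h heifers and CIDR+24h replicate 4, and the lower pair reaches its highest values in Oestrus+12h replicate 3 or Luteal replicate 1.

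The transcripts most like the first in ratio were sought among all in range, by Pearson correlation of log2(CPM + 0.5) over the 24 heifers outside CIDR+12h. The 5 closest had r of 0.987, 0.976, 0.975, 0.958 and 0.95, and all 5 were among the 100, at ranks 3, 4, 7, 5 and 15. With 23 heifers at 0 for the first transcript, these values rest on CIDR+24h replicate 4. The transcript of rank 15 had 269 CPM in that heifer, against 17.8 CPM in the highest of the 23, and 52.7 to 280 CPM over the CIDR+12h heifers.

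The library labelled CIDR+24h replicate 4 resembled CIDR+12h replicate 4 in most of these transcripts. Whether its stage label is right, or whether it holds RNA of another heifer, was not tested, and every CIDR+24h value that includes it depends on that label. Over the set of 78, its log2(CPM + 0.5) differed from that of CIDR+12h replicate 4 by -0.12 at the median (quartiles -0.29 and 0.05). The difference from the 5 other CIDR+12h heifers was 1.43, 2.13, 1.04, 1.51 and 1.78 for replicates 1, 2, 3, 5 and 6, so both heifers carried more of the set than the rest. Drawing the set on a high level in CIDR+24h replicate 4 favoured these differences. Over the 22 other members they were -0.69, -3.03, -3.28, -2.43 and -2.47 in the same order. CIDR+12h replicate 4 lay above the median of its 5 stage mates by 1.70, and CIDR+24h replicate 4 above the median of its own by 3.42. The set of 78 was drawn on a high level in CIDR+24h replicate 4, so the sign of the second difference was fixed in advance. Over the 22 other members the same differences were -2.19 and -0.25. Over all 16207 transcripts in range these differences were -0.08 and -0.39. Scaling to the library total fixes the sum of CPM but not this median. Over the 78, Pearson's r between the pair was 0.964, as a description across transcripts, which are not independent. With the other CIDR+12h heifers it was 0.832 to 0.937. Over all 100 transcripts r was 0.929 for the pair and 0.796 with CIDR+12h replicate 1. It was only 0.257, 0.386, 0.391 and 0.407 with CIDR+12h replicates 2, 3, 5 and 6. The 23 heifers outside CIDR+12h had -0.164 to 0.571 with CIDR+24h replicate 4. Over all transcripts in range the pair's r was 0.957, against 0.794 to 0.924 with the 5 other CIDR+12h heifers. Luteal replicates 2 and 5, at 0.942 and 0.934, were closer to it over all transcripts in range than any of those 5.

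**Figure D3:**
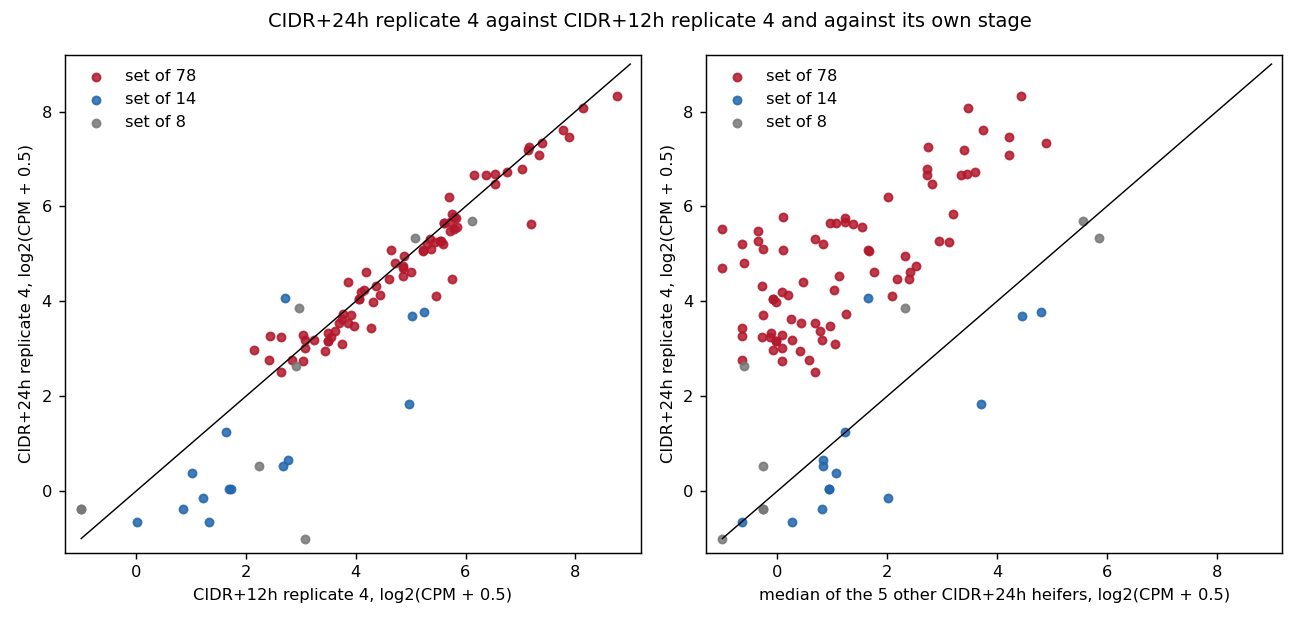
Level of the 100 transcripts in CIDR+24h replicate 4 (vertical) against CIDR+12h replicate 4 (left) and against the median of the 5 other CIDR+24h heifers (right), as log2(CPM + 0.5), with the line of equal levels. Points of the set of 78 lie along the line on the left, at a median of -0.12 from it, and above it on the right, at a median of 3.42. The set was drawn on a high level in CIDR+24h replicate 4, which fixed its side of the line on the right.

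The share of transcripts in which a heifer was the highest of its own stage shows the same pair. CIDR+12h replicate 4 was highest of the 6 in 74 of the 100 transcripts, and in 14.5% of those in range. CIDR+24h replicate 4 was highest of its 6 in 80 of the 100, and in 6.43% of those in range. Outside these, Oestrus replicate 2 was highest of 4 in 42 transcripts (18.6% in range), Oestrus+12h replicate 3 in 38 (20.6%) and Luteal replicate 1 highest of 5 in 37 (14.8%). An equal share would be 16.7% in a stage of 6, 25% in a stage of 4 and 20% in a stage of 5.

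Spread within a stage differed between the sets. The SD of log2(CPM + 0.5) within CIDR+24h had a median of 1.46 over the 100 transcripts, against 0.54 over all in range. Within CIDR+12h it was 0.89 against 0.50. Within Oestrus, Oestrus+12h, Oestrus+48h and Luteal the members' medians were 0.50, 0.47, 0.43 and 0.44, near the 0.47, 0.42, 0.48 and 0.47 of all in range. Over the 22 members outside the set of 78, however, it was 2.23 within Oestrus+12h and 1.57 within Luteal, against 0.40 and 0.39 over the 78. The 22 include the set of 14, drawn on high levels in 1 heifer of each of these 2 stages. This contrast therefore follows in part from how the sets were drawn. The SD was not computed without single heifers.

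To measure heifers that the choice had not used, the rule was applied to 29 heifers and its 100 transcripts were read in the heifer left out. The heifers it was compared with did enter the rule, which favours transcripts with low medians in their stages. All transcripts in range were not chosen in this way, so the 2 percentages are a description. CIDR+24h replicate 4 was kept out of the 23 after the data had been seen. Each of the 6 CIDR+12h heifers was above the 23 others in many of the transcripts chosen without it: 58 for replicate 1, 45 for replicate 2, 64 for replicate 3, 63 for replicate 4, 67 for replicate 5 and 62 for replicate 6. The same heifers were above the 23 in 1.63%, 1.49%, 4.05%, 3.63%, 7.87% and 0.876% of all transcripts in range. Median levels of the chosen transcripts in the left-out CIDR+12h heifer ran from 6.30 to 25.2 CPM. CIDR+24h replicate 4 was above the 23 in 76 of the 100 chosen without it (3.13% in range), with a median of 18.2 CPM. Each of the 23 others, left out in turn and compared with the remaining 22, was highest in 0 to 18 of its 100, with medians of 1.22 to 2.32 CPM. The highest of these counts was 18 for Luteal replicate 1 (1.77% in range).

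**Figure D4:**
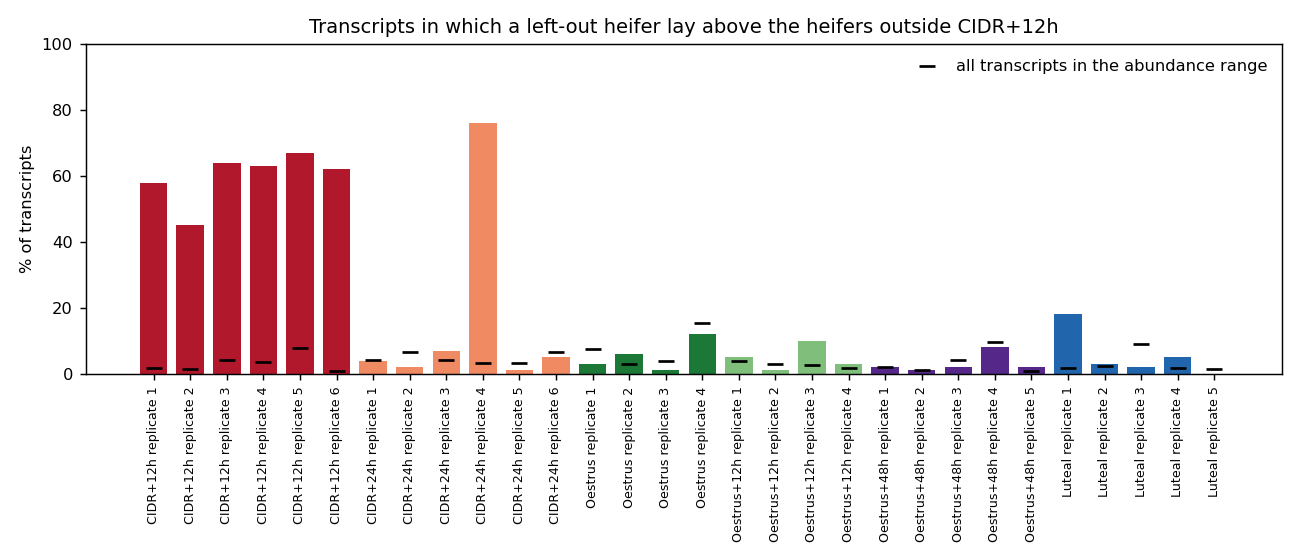
For each heifer, left out before the 100 transcripts were chosen, the percentage of them (bars, coloured by stage) in which it lay above the other heifers outside CIDR+12h, CIDR+24h replicate 4 not counted among them. Black dashes give the same percentage over all transcripts in the abundance range. Bars reach 45% to 67% for CIDR+12h heifers, 76% for CIDR+24h replicate 4 and at most 18% elsewhere.

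The set of 14 reached its CIDR+12h median through only some heifers. Its median level was 35.2, 43.8, 38.0 and 23.9 CPM in CIDR+12h replicates 2, 3, 5 and 6, but 1.81 CPM in replicate 1 and 2.78 CPM in replicate 4. In 11 of the 14, replicates 1 and 4 were the lowest 2 of the stage. The heifer that led the set of 78 was thus among the low heifers here, and CIDR+24h replicate 4, at 0.871 CPM, was the lowest of all 30.

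Outside CIDR+12h, the set of 14 had 110 CPM in Luteal replicate 1 and 91.8 CPM in Oestrus+12h replicate 3. The other 4 Luteal heifers had 7.19 to 12.8 CPM and the other 3 Oestrus+12h heifers 2.49 to 4.05 CPM. At Oestrus, replicate 2 had 8.44 CPM and the other 3 heifers 1.72 to 1.82 CPM. The highest of all 30 heifers was Luteal replicate 1 or Oestrus+12h replicate 3 in each of the 14. Their ratio of stage medians ran from 1.77 to 3.81, and the stage next in level was Luteal for 10 of them.

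The most abundant of the 100 belonged to this set, at rank 49. It had 12.1, 801, 293, 30.9, 289 and 415 CPM in CIDR+12h replicates 1 to 6, 2448 CPM in Luteal replicate 1 and 1024 CPM in Oestrus+12h replicate 3. The other Luteal heifers had 105, 88.8, 117 and 77.7 CPM, and the CIDR+24h heifers 1.89 to 24.5 CPM. The CIDR+12h group overlapped every other stage for this transcript. The summed level of all 100 was 4596 CPM in Luteal replicate 1 and 2762 CPM in Oestrus+12h replicate 3, so this single transcript enters such sums heavily. It was 4395 CPM in CIDR+12h replicate 4 and 3866 CPM in CIDR+24h replicate 4, where the same transcript had only 30.9 and 3.08 CPM.

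**Figure D5:**
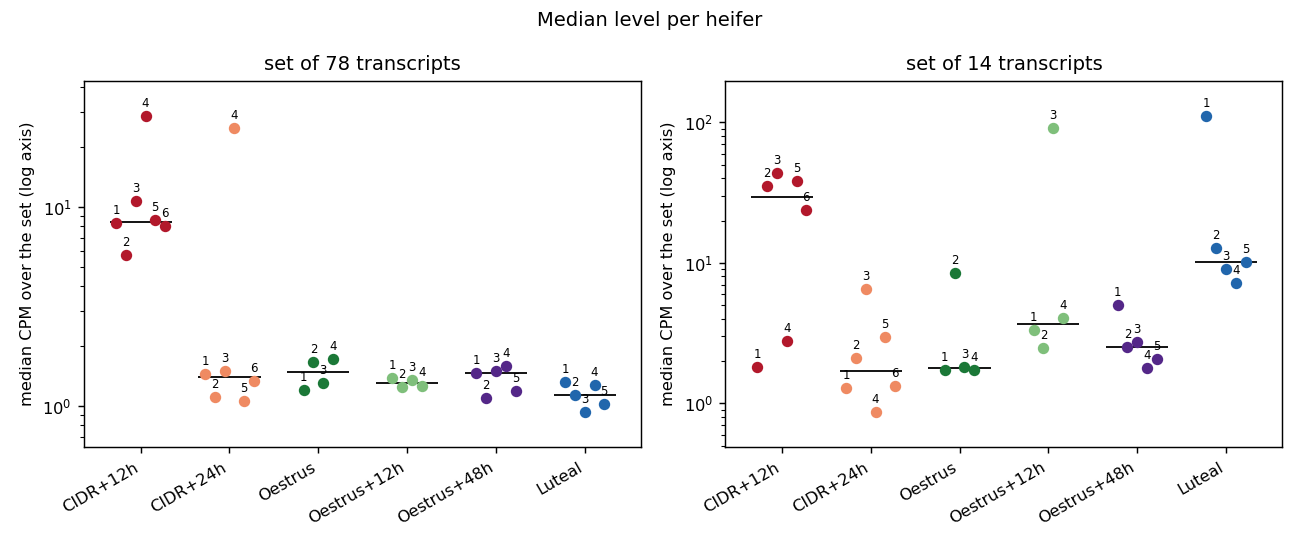
Median CPM per heifer (log axis, numbers are replicates, bars are stage medians) over the set of 78 (left) and the set of 14 (right). On the left the CIDR+12h heifers and CIDR+24h replicate 4 lie at 5.75 CPM or more and the rest at 1.72 CPM or less, and on the right CIDR+12h replicates 1 and 4 lie at 1.81 and 2.78 CPM, far below Luteal replicate 1 at 110 CPM.

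The members with the lowest ratios show how a stage median can be high without separation of heifers. ENSBTAT00000020400, at rank 99, had 1.52 CPM in the lowest CIDR+12h heifer, 7.24 at the median and 10.9 in the highest, but 18.9 CPM in Oestrus+12h replicate 3 and 17.2 CPM in Luteal replicate 1. ENSBTAT00000032046, at rank 100, had 0 CPM in the lowest CIDR+12h heifer, 1.03 at the median and 13.7 in the highest. Its Luteal heifers had 46.0, 1.13, 0, 0.365 and 0.113 CPM, so that the Luteal mean (9.53 ± 20.4 CPM, SD, n = 5) exceeded the CIDR+12h mean (3.31 ± 5.26 CPM, n = 6). For both, CIDR+12h overlapped the other stages.

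Since the ranking is by the same contrast, the following counts by rank are a description. Every CIDR+12h heifer lay above the 23 others in 20 of the transcripts at ranks 1 to 25, in 15 at ranks 26 to 50, in 4 at ranks 51 to 75 and in 4 at ranks 76 to 100. CIDR+24h replicate 4 lay above the 23 in 24, 21, 20 and 13 of the same blocks of 25. The set of 14 contributed 0, 3, 5 and 6. Of the 8 transcripts in neither set, the one at rank 11 had 0, 16.1, 0, 7.99, 0.227 and 11.5 CPM in CIDR+12h replicates 1 to 6 and its highest level, 59.1 CPM, in Luteal replicate 4. Heifers of every other stage were likewise either at or near 0 or above 7 CPM for it.

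Likeness between transcripts depended on the heifers and the set. With stage means removed, the median pairwise Pearson r of log2(CPM + 0.5) was 0.58 over 30 heifers, against 0.09 over all pairs in range. Over the 23 heifers, Luteal replicate 1 and Oestrus+12h replicate 3 among them, it was 0.04, against 0.08 over all pairs in range. Within the set of 14 the median over the 23 was 0.71 with stage means kept, where the 100 had 0.03, but those 2 heifers chose that set. Among the 99 transcripts that varied over the 23, 9 pairs had r above 0.95, 6 of them above 0.99, and these pairs may share reads, which was not tested. None of the 100 had the counts of another ID in all 30 heifers.

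The 5 stages other than CIDR+12h were then compared with each other. The rule used the highest of their 5 medians, as the denominator of the ratio, so these comparisons are not fully independent of the choice of transcripts. A transcript could also pass the abundance range and the filter on low counts through CIDR+12h and CIDR+24h replicate 4 alone, as the first in ratio did, and such a transcript had little or no count to compare in the other stages. The 3 comparisons with Luteal share its 5 heifers. edgeR's quasi-likelihood test over 16940 transcripts, with Benjamini-Hochberg adjustment, called 0 of the 100 for any difference among the 5 stages (0% of all tested). The smallest adjusted p among them was 0.0861, which was also the smallest of all transcripts tested. At an unadjusted p under 0.05 stood 63 of the 100, against 13.2% of all tested. DESeq2, with an adjusted p under 0.05, called 36 of the 100 (1.33% of all tested). The edgeR count changed with CIDR+24h replicate 4, and DESeq2 was run on all heifers only. Without that library 15 of the 100 had an unadjusted p under 0.05, against 9.18% of all tested, and edgeR again called 0. Without Oestrus+12h replicate 3 the number was 62 (12.0% of all tested). Leaving out another CIDR+24h heifer gave 0 (replicate 1), 7 (replicate 2), 4 (replicate 3), 7 (replicate 5) or 4 (replicate 6) edgeR calls among the 100, with no call outside them.

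Levels 24 h after device removal were then compared with the luteal stage. The median log2 difference over the 100 transcripts was 1.61, with 81 higher and 19 lower at CIDR+24h, against a median of 0.01 over all tested. edgeR called 0 (0%), with a smallest adjusted p of 0.226, and 66 had an unadjusted p under 0.05 (13.3% of all tested), 56 of them higher (6.96% of all tested) and 10 lower (6.39%). DESeq2 called 25 of the 100 (0.655% of all tested), 20 higher (0.49%) and 5 lower (0.165%). Without CIDR+24h replicate 4 the median log2 difference turned to -0.19, and 15 of the 100 had an unadjusted p under 0.05 (10.1% of all tested). Without Luteal replicate 1 it was 1.64, with 55 at an unadjusted p under 0.05 (12.8%). The 56 higher transcripts all belonged to the set of 78, and the 10 lower ones to the set of 14, whose definitions used a heifer of one of the 2 stages.

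Oestrus and the luteal stage were closer. The median log2 difference over the 100 transcripts was -0.18, with 38 higher and 61 lower at Oestrus, against -0.01 over all tested. edgeR called 0 (0%; smallest adjusted p = 0.654), and 10 of the 100 had an unadjusted p under 0.05 (7.24% of all tested). DESeq2 called 1 of the 100 (0.0649% of all tested). All 10 were lower at Oestrus (4.39% of all tested), and 8 of them belonged to the set of 14. Luteal replicate 1 was used to draw that set, so the overlap follows in part from its choice. With Luteal replicate 1 left out, 2 of the 100 had an unadjusted p under 0.05 (6.2% of all tested). Oestrus replicates 3 and 4 and CIDR+12h replicate 5 carry a shorter animal number in the labels than the rest, and without these 3 heifers the number was 0 (1.57% of all tested). Oestrus then held only replicates 1 and 2, and the effect of the smaller group was not tested. Without Oestrus replicate 2 alone the number was 16 (14.3% of all tested), and without Oestrus replicate 3 alone it was 6 (4.77%).

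From 48 h after onset of oestrus to the luteal stage the members' median log2 difference was 0.05, with 53 higher and 46 lower at Oestrus+48h, against 0.01 over all tested. edgeR called 0 (0%; smallest adjusted p = 0.944), and 13 of the 100 had an unadjusted p under 0.05 (4.73% of all tested), all lower at Oestrus+48h (2.82%). DESeq2 called 2 of the 100 (0.0177% of all tested). Of the 13, 12 belonged to the set of 14. That set was drawn on a high level in Luteal replicate 1, among others, so the overlap follows in part from its choice. Without Luteal replicate 1 the 13 became 4 (4.57% of all tested).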

How the data were processed

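Polyadenylated RNA was sequenced as single reads, per the labels' protocols, and CASAVA 1.0 is named in the submitters' processing notes. The sources used here do not name the aligner, counting program, genome build, annotation or strand setting. Raw whole-number counts were deposited for each Ensembl transcript ID, 1 file per heifer, so reads shared by isoforms, gene copies, overlapping or antisense transcripts may be counted in several IDs or divided. Library totals were 5434853 to 19628122 counts. Groups followed the stage label, with replicates numbered in accession order. Counts of any 2 libraries from the same stage differed beyond sampling noise (lowest chi-square per degree of freedom 19.3).

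CPM used the plain library total, without further scaling. Tests used edgeR 4.0.16 (R 4.3.3) with TMM factors, filterByExpr (minimum count 10, minimum total 15) and a robust quasi-likelihood fit of 1 mean per stage over all 30 heifers, and a call meant an adjusted p under 0.05. All 100 members passed the filter. Limits at a count of 0 are 3 counts and cover counting error only.

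The members, lists and tests were chosen with earlier results of these data known. The gene and marker lists could not be applied, as no ID matched a symbol, and the naming rule took the 2 highest and the 2 lowest ratios. Alternatives were DESeq2 1.42.0, other size factors, other filters, other settings of the rule, and leaving out heifers. Left-out heifers read in transcripts chosen without them, and the counts of separation, were added after seeing the data. The sources do not say whether heifers were handled in batches.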

Additional observations from a re-analysis of the deposited data

Results flagged for a closer look

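In 17 of 42 groups of values examined, 1 heifer was separated from its stage mates by a gap that took up most of the range. Values that follow a normal curve give about 1 in 20. Counts and CPM need not follow it, and the transcripts examined were picked by their ratios, so no excess over that rate is read from the 17. Several of these values come from the same heifer and related transcripts and are not separate findings. The deepest library was that of CIDR+12h replicate 6 (19628122 counts, others of the stage 8819190 to 11075868).

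In CIDR+12h replicate 4 the median over the 100 transcripts was 20.7 CPM (7.51 to 11.9 in the others of its stage), with 54.7 CPM of ENSBTAT00000056743 (others 11.9 to 21.7) and 40.8 CPM of ENSBTAT00000008373 (others 7.45 to 14.7). In CIDR+24h replicate 4 the median was 17.5 CPM (others 1.22 to 1.93) and the sum over the 100 was 3866 CPM (others 468 to 632), with 45.7 CPM of ENSBTAT00000056743 against 0 in the others.

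The summed CPM of the 100 was 2762 in Oestrus+12h replicate 3 (others 435 to 663) and 4596 in Luteal replicate 1 (others 513 to 827). ENSBTAT00000020400 had 18.9 and 17.2 CPM in these, against 1.52 to 1.84 and 2.44 to 5.22 in their stage mates. ENSBTAT00000032046 had 9.67 and 46.0 CPM in the same heifers, against at most 0.147 and 1.13. It also stood apart in CIDR+12h replicate 2 (13.7 CPM, others up to 3.67), Oestrus replicate 2 (0.932 CPM, others 0) and CIDR+24h replicate 5 (0.567 CPM, others up to 0.161). ENSBTAT00000008373 stood apart in Luteal replicate 5 (0.454 CPM, others up to 0.126). The last 3 values rest on few counts. Whether the stage labels of these libraries are right was not tested.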

How the results depend on the processing

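No paired analysis was possible because the labels give each heifer its own number and share none between stages. For any difference among the 5 stages, DESeq2 called 36 of the 100 members and 226 of all transcripts, where edgeR called 0 and 0, and leaving out each heifer gave 0 to 7 for both, with 3 non-members called without Oestrus replicate 1. DESeq2 called 25 and 111 for CIDR+24h against Luteal, 1 and 11 for Oestrus against Luteal, and 2 and 3 for Oestrus+48h against Luteal, where edgeR called 0 under every other setting run. The cause was not tested. Members' median log2 differences ran from -0.19 to 1.83 over omissions of a heifer for CIDR+24h against Luteal (-0.19 without CIDR+24h replicate 4), -0.40 to -0.09 for Oestrus and -0.08 to 0.07 for Oestrus+48h. With means in place of medians, 12 of the 100 were no longer highest at CIDR+12h, and 66 were chosen again. The number was 96 and 98 with 0.1 or 1 CPM added, 89 with TMM scaling, 83 with a mean from 0.5 CPM, 85 without the 3 heifers with a shorter animal number and 81 to 99 over omissions of a heifer. Transcripts with every CIDR+12h heifer above the 23 numbered 43 to 57 over omissions of a CIDR+12h heifer. Within the same 100, an omission could only leave this count at 43 or raise it, so the lower end was fixed in advance. The count was 49 with TMM scaling, and both settings were chosen after seeing the data. With a filter of 10 CPM in 4 heifers only 56 members were tested. Members with a mean near 1 CPM rest on few counts per library, which limits their ratios.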
